A study of Homo sapiens with 12 samples.

Results

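Genes that were lower in every culture given Paclitaxel than in either untreated culture of the same day were taken from RNA-seq counts of the human breast cancer cell line MDA-MB-231. They were chosen by their measured levels: an identifier with a gene symbol was kept if its mean in untreated day 4 cultures (C2) was at least 5 CPM, which is the count scaled by the library total, and if each of the 8 treated libraries stood at no more than 66.7% of the lower C2 library. Of 63568 identifiers in the table, 55665 had a symbol, 11079 of those reached 5 CPM in C2, and 21 met the rule, which is 0.190% of the 11079. The mirror rule, every treated library at least 1.5 times the higher C2 library, was met by 28 genes. Because C2 and the treated libraries chose the members, the differences between these groups are given as a description without a test.

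MDA-MB-231 is a triple negative line, labelled wild type and carrying a nuclear green fluorescent protein, and all 12 cultures were grown as droplets in Matrigel, a basement membrane gel. C1 was untreated and taken on day 2, C2 was untreated and taken on day 4, and the other cultures were given 0.0005, 0.005, 0.05 or 0.5 μM Paclitaxel on day 2 and taken on day 4, with 2 libraries for each of the 6 conditions. Paclitaxel binds microtubules and stabilises them, so that dividing cells are held in mitosis. Before lysis all cultures were released from the gel by enzymatic digestion, and the study calls the 2 libraries of a condition biological replicates. The labels place dosing on day 2, whereas the account of the imaged cultures, whose procedure the RNA-seq repeated, names a later day, so the length of exposure rests on the labels. One line was used, and the labels name no vehicle for the untreated cultures. RNA was pooled over all cells of a culture, so that fewer cells of a type and less RNA per cell cannot be told apart.

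Library totals ran from 38380629 to 79169121 counts, both extremes being C1, and the C1 pair also stood apart in its spread: the log2 difference between replicates had an SD over 11154 genes of 0.576 in C1 and of 0.0902 to 0.229 in the other conditions. The mesenchymal marker VIM was at 781 to 1229 CPM and the epithelial markers CDH1 and EPCAM at no more than 0.215 CPM and at 4.23 to 5.91 CPM. Of the other markers searched for the line, CD44, CAV1 and AXL were at 219 CPM or more and ESR1 and PGR at no more than 0.494. SPARC, listed as high in the line, was at only 17.0 to 34.5 CPM, and ERBB2, listed as low, at 23.2 to 47.2 CPM. Marker sums of other cell types were low but moved with treatment. Endothelial markers summed to 0.443 to 1.55 CPM in untreated and 2.04 to 3.48 in treated libraries. Among them KDR was at 0.339 to 2.06, VWF at no more than 0.811, CDH5 at no more than 0.510 and CLDN5 at no more than 0.114. Leukocyte markers summed to 0.391 to 0.706 CPM in untreated and 1.04 to 1.86 in treated libraries. Fibroblast markers summed to 7.71 to 15.5 CPM in untreated and 11.1 to 22.4 CPM in treated libraries. The part of these small signals in the results was not tested.

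The 21 genes fall into 3 groups by known function, formed after the members were seen. Immediate early genes are switched on within minutes of a growth signal or stress and need no new protein for it, and FOSB, NR4A1, NR4A2 and NR4A3 belong to them. Cells enter S phase, in which DNA is copied, when cyclin-dependent kinases release E2F transcription factors from the retinoblastoma family of pocket proteins, and E2F then raises genes for DNA synthesis and for packing the new DNA into chromatin; 12 members, E2F1 among them, act at this step or are known to be expressed in it. The other 5 members (HMGCS1, RAB17, FHL1, SLCO4C1 and MNS1) share no single function.

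Promoter sequence, which was not part of the rule, is shown for the G1 and S phase members with an E2F site and the early genes with a cAMP response half-site; other members held other searched elements as close to the start and are not printed. RefSeq windows on GRCh38.p14, from 250 bases before to 50 after a start, were matched for 18 of the 21 genes. An E2F site, searched as TTTCGCGC or TTTGGCGC on both strands, lay in the windows of 4 of the 10 G1 and S phase members with a window, in 1.15% of all 35116 windows and in those of 2.59% of the 8773 genes at 5 CPM or more. The 80 bases before the start are printed 5′ to 3′ in the direction of the gene, with the E2F site on either strand in capitals.
E2F1 (chr20:33686386-33686465, minus strand): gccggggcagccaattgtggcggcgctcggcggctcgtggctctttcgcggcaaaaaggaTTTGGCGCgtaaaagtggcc
RBL1 (chr20:37095998-37096077, minus strand): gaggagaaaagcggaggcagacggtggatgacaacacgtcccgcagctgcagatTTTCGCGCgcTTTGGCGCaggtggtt
POLA2 (chr11:65261882-65261961, plus strand): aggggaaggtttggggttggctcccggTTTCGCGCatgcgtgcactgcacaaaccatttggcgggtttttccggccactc
ZNF367 (chr9:96418371-96418450, minus strand): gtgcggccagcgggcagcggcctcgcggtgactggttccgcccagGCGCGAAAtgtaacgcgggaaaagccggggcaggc

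RBL1 held both forms, and all 5 matches began within 53 bases of the start. SLCO4C1 was the only other member with a match. The cAMP response half-site TGACG, at which CREB-type factors can bind, was in the windows of FOSB and NR4A3 and not in those of NR4A1; it is common, being in 24.6% of all windows and in 41.9% of the expressed genes, and 5 of the 10 G1 and S phase members also held it. NR4A3 had 4 copies. The full palindrome TGACGTCA was in none of the 18 members and in 1.85% of windows. The stretches before the start of both early genes are printed with the half-site on either strand in capitals.
NR4A3 (chr9:99821775-99821884, plus strand): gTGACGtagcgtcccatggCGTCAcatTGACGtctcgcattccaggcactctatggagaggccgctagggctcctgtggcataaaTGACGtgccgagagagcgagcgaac
FOSB (chr19:45467936-45467995, plus strand): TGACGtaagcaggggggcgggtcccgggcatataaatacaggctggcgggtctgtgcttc

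Other elements were searched in the same windows. The CCAAT box, bound by NF-Y, was in 5 of the 10 G1 and S phase members and in 43.9% of expressed genes, the AP-1 site TGACTCA was in FHL1 alone, and the sterol element TCACNCCAC was in no member, HMGCS1 included. A match is a description of letters in a window and not evidence of binding.

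The immediate early members had the largest differences. FOSB, a partner in the AP-1 dimer (ENSG00000125740, GRCh37 chr19:45971253-45978437), stood at 541 and 354 CPM in C2 and at 398 and 167 CPM in C1. With rising dose its pairs were 197 and 120, then 85.1 and 79.5, then 82.8 and 128, and at 0.5 μM 47.4 and 41.5 CPM. Both libraries of the top dose were below all other treated libraries, and the C1 library at 167 CPM lay inside the range of the lowest dose. The C2 mean of 448 ± 133 CPM (SD, n = 2) was 4.58 times the mean of the 8 treated libraries, 97.6 ± 50.3 CPM.

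NR4A1, NR4A2 and NR4A3 encode orphan nuclear receptors, also called NUR77, NURR1 and NOR1, which act without a known classical hormone. NR4A1 (ENSG00000123358, GRCh37 chr12:52416616-52453291) was at 166 and 94.8 CPM in C2, at 172 and 59.0 CPM in C1, and between 26.4 and 44.2 CPM in the treated libraries with a median of 28.3. The levels of NR4A2 (ENSG00000153234) were 99.5 and 46.8 CPM in C2, 67.8 and 26.1 CPM in C1, and 15.8 to 22.7 CPM with a median of 16.8 under treatment. For NR4A3 (ENSG00000119508, GRCh37 chr9:102584137-102629173) C2 had 86.8 and 33.7 CPM, C1 57.8 and 25.04 CPM, and the treated libraries 10.6 to 18.7 CPM with a median of 12.5. In all 3 receptors, but not in FOSB, both C1 libraries were above every treated library, a pattern of 6.89% of all genes at 5 CPM or more that the rule favours by requiring low treated levels. C2 exceeded the treated mean 4.12-fold in NR4A1, 4.10-fold in NR4A2 and 4.55-fold in NR4A3, but the C2 libraries themselves differed by 1.53-fold to 2.57-fold over the 4 early genes, and replicate 1 was the higher in each.

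Within each condition the same replicate was the higher in all 4 early genes, although FOSB ranged 4.76-fold over the treated libraries and the NR4A genes 1.44-fold to 1.77-fold. In C1, replicate 1 exceeded replicate 2 by 2.31-fold to 2.92-fold. Among treated libraries the second library at 0.05 μM was above the first in each of the 4 (128 against 82.8 CPM in FOSB, 18.7 against 12.6 CPM in NR4A3), and at 0.0005 μM the first was above the second in each. NR4A1 shares 10.3% of its exonic bases with NR4A1AS on the opposite strand, which was at 0.146 CPM, and the strand setting of the counts is not given in the sources used here.

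**Figure D1:**
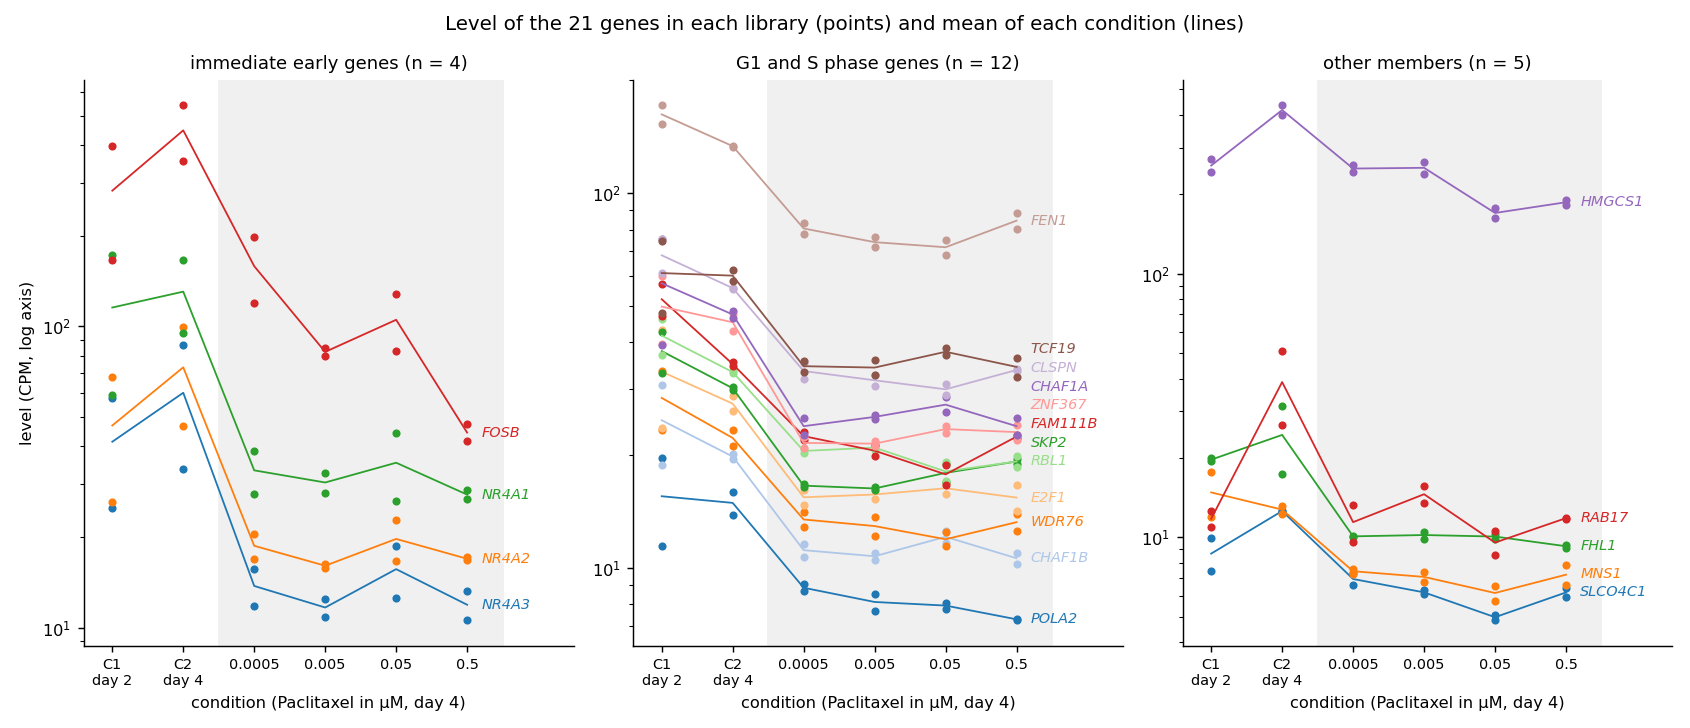
Level in CPM on a log axis (vertical) against condition (horizontal), in a panel for each group of genes; points are single libraries, lines join the means of the 2 libraries of a condition, and the shaded area marks the 4 doses. By the choice of members every treated point lies below both C2 points, and FOSB reaches 47.4 and 41.5 CPM at 0.5 μM.

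The G1 and S phase members differed less and, in the libraries that the rule used, were far more even. E2F1, the founding activator of the E2F family (ENSG00000101412, GRCh37 chr20:32263283-32274191, minus strand), was at 28.7 and 26.2 CPM in C2, at 43.2 and 23.7 CPM in C1 and at 14.2 to 16.9 CPM in the treated libraries with a median of 16.0. RBL1, which encodes the pocket protein p107, had 33.5 and 33.2 CPM in C2, 46.3 and 37.1 CPM in C1 and 17.0 to 21.2 CPM under treatment. SKP2, the F-box protein that marks the kinase inhibitor p27 for destruction, was at 30.5 and 29.9 CPM in C2, 42.8 and 33.1 CPM in C1 and 16.2 to 19.6 CPM in treated cultures. For RBL1 and SKP2 both C1 libraries were above both C2 libraries, whereas the C1 libraries of E2F1 lay on either side of C2.

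Proteins that work at the replication fork came next. FEN1, the nuclease that trims Okazaki fragments, was at 133 and 134 CPM in C2, 172 and 153 CPM in C1 and 68.3 to 88.8 CPM in treated libraries. CLSPN, the mediator of the replication checkpoint kinase, had 55.7 and 56.0 CPM in C2, 75.5 and 61.2 CPM in C1 and 29.0 to 35.2 CPM after treatment. POLA2, a subunit of the polymerase that makes primers, was at 16.0 and 13.9 CPM in C2, at 19.6 and 11.5 CPM in C1 and at 7.28 to 9.06 CPM under treatment. The lower C1 library of POLA2 was below both C2 libraries but above all 8 treated ones.

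CHAF1A and CHAF1B encode subunits of chromatin assembly factor 1, which places histones on freshly copied DNA. CHAF1A was at 48.5 and 46.5 CPM in C2 and at 22.7 to 28.5 CPM in the treated libraries, and CHAF1B at 20.2 and 19.5 CPM against 10.3 to 12.6 CPM. In C1 the replicates of CHAF1A were 75.7 and 39.4 CPM and those of CHAF1B 30.8 and 18.8 CPM, a wider gap than that between the means of C1 and C2. The C2 means were 1.89 and 1.78 times the treated means. All 12 members of this group lay between 1.68 and 2.02, so a similar factor is not particular to the subunits of this complex.

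The other 4 genes of this group were ZNF367, TCF19, WDR76 and FAM111B. ZNF367, a zinc finger protein, was at 47.5 and 43.0 CPM in C2 and at 20.9 to 24.1 CPM in treated libraries, a ratio of 2.02 that was the highest of the 12. TCF19, named as a transcription factor of the G1 to S transition, had 62.4 and 58.2 CPM in C2 and 32.4 to 38.6 CPM under treatment. FAM111B, a protease-like protein, had 35.5 and 34.6 CPM in C2, 16.7 to 23.1 CPM under treatment, and 47.1 and 57.2 CPM in C1, the highest ratio of C1 to C2 among the 21 members (1.49). Over the 12 genes the C2 mean was 1.68 to 2.02 times the treated mean. The C2 replicates differed by no more than 1.15-fold, and the highest treated library was 1.16 to 1.38 times the lowest. At such ratios the rule admits only genes with close C2 and treated libraries, so this evenness follows from the choice of members. In C1, outside the rule, the ratio of replicate 1 to replicate 2 ran from 0.822 to 1.92. Each of the 12 had both C1 libraries above all 8 treated libraries, beside 6.89% of all genes, the treated levels being low by the rule.

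The remaining members had diverse functions, and 3 of the 5 (HMGCS1, RAB17 and SLCO4C1) had both C1 libraries below both C2 libraries, which was so in 3 of all 21 members and in 24.7% of all genes. HMGCS1, the cytosolic synthase that makes HMG-CoA for cholesterol (ENSG00000112972, GRCh37 chr5:43287572-43313614, minus strand), was at 400 and 434 CPM in C2 and at 242 and 271 CPM in C1. Its treated pairs were 258 and 242 CPM at 0.0005 μM, 265 and 239 CPM at 0.005 μM, 162 and 178 CPM at 0.05 μM, and 182 and 191 CPM at 0.5 μM. The 4 libraries of the lower doses thus lay in or near the range of C1, and the 4 libraries of the higher doses lay below them without overlap. Of the exonic bases of HMGCS1, 37.7% are shared with a long noncoding RNA on the opposite strand that was at 1.17 CPM.

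RAB17, a small GTPase of epithelial membrane traffic (ENSG00000124839, GRCh37 chr2:238482965-238510257), was at 50.9 and 26.6 CPM in C2, at 10.99 and 12.5 CPM in C1, and at 8.58 to 15.7 CPM in treated libraries with a median of 11.8. Its C1 libraries were inside the treated range, and C2 was the group that stood apart. FHL1, a LIM domain protein of muscle and cytoskeleton, had 31.6 and 17.3 CPM in C2, 19.4 and 20.0 CPM in C1 and 9.15 to 10.5 CPM under treatment. For FHL1 the C2 replicates differed 1.82-fold and enclosed both C1 libraries.

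SLCO4C1, an organic anion transporter, was at 12.6 and 12.5 CPM in C2, at 7.45 and 9.90 CPM in C1 and at 4.86 to 7.32 CPM in treated libraries. MNS1, a protein of the ciliary axoneme, had 12.3 and 13.2 CPM in C2, 11.9 and 17.7 CPM in C1 and 5.75 to 7.84 CPM under treatment. MNS1 shares 18.7% of its exonic bases with TEX9 on the opposite strand, which was at 5.47 CPM in C2, so that part of its counts may belong to TEX9 if strand was not used.

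**Figure D2:**
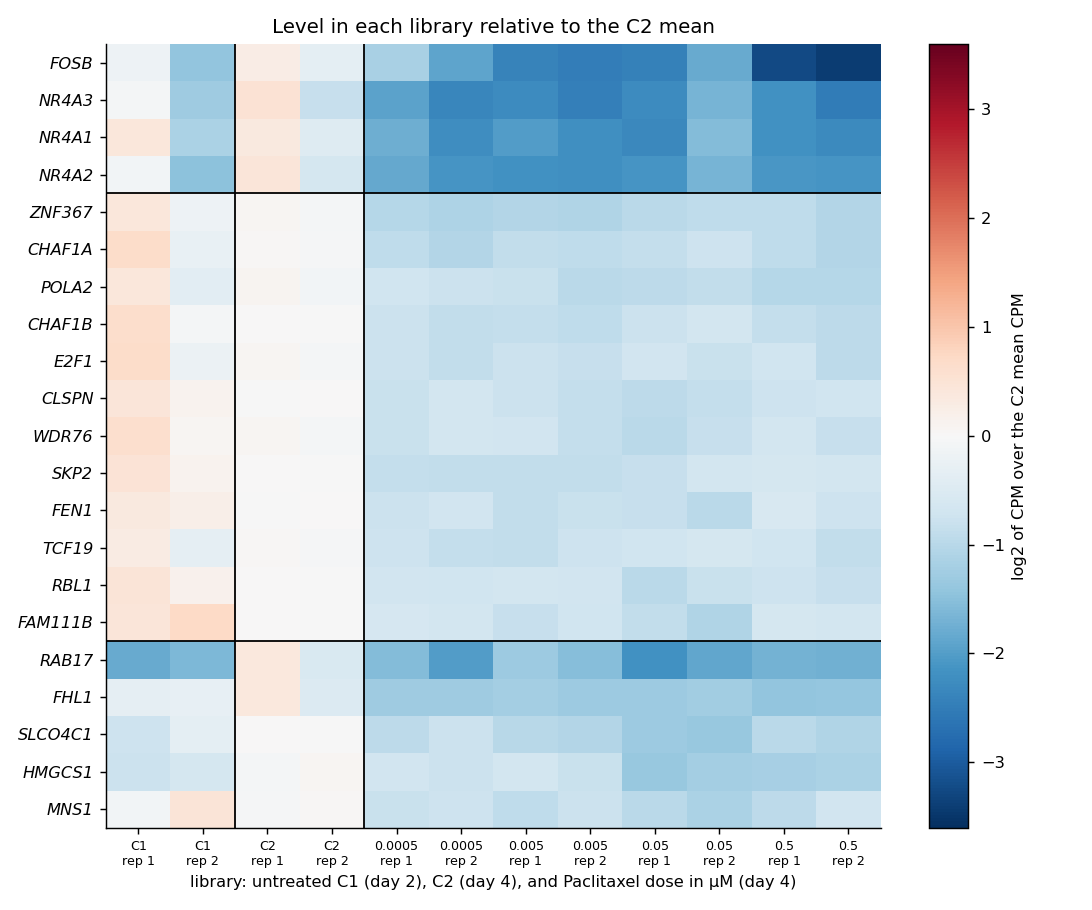
Each cell is the log2 ratio of a gene's CPM in one library to its C2 mean (colour scale), with genes in rows by group and libraries in columns; lines divide the groups and separate C1, C2 and the treated libraries. All treated cells are blue, the G1 and S phase rows are close to white in C2, and the early genes, RAB17 and FHL1 differ between the C2 replicates.

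Members were moderately expressed in C2, at 12.6 to 448 CPM, with no fewer than 306 counts for any member in any library. Per kilobase of exon the highest members in C2 were FOSB at 80.6, HMGCS1 at 62.9 and FEN1 at 60.8 CPM. The lowest were POLA2 at 1.24, SKP2 at 1.74 and SLCO4C1 at 2.48 CPM. Exonic length here joins all annotated exons of a gene, 12006 bases in POLA2 and 17377 in SKP2. Without division by length the lowest members in C2 were SLCO4C1 at 12.6 and MNS1 at 12.7 CPM. In the treated libraries the order at the top changed to FEN1 at 35.4, HMGCS1 at 32.4 and FOSB at 17.6 CPM per kilobase. Exonic length had a median of 5104 bases in members and 5518 in all genes at 5 CPM or more, and GC content a median of 48.3% and 46.9%, with members spread from 37.1% to 61.6%.

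At the limit of 66.7%, membership was decided by small differences. The highest treated library reached 66.5% of the lower C2 library in WDR76, 66.6% in FEN1 and 66.7% in FAM111B. WDR76, a WD repeat protein of the DNA damage response, was at 23.3 and 21.2 CPM in C2 and at 11.4 to 14.1 CPM in treated libraries. Just outside were BRIP1, a helicase of the Fanconi pathway, at 66.8%, GINS2, a part of the replicative helicase, at 67.0%, and NEDD9, an adhesion scaffold, at 67.1%. When the libraries were scaled by the trimmed mean of M-values (TMM) the rule gave 24 genes, of which 14 were among the 21, and POLA2, RBL1, WDR76, CLSPN, MNS1, FEN1 and FAM111B were no longer in it. The lower C2 library sets the limit: without C2 replicate 2 the rule gave 123 genes and without C2 replicate 1 it gave 32, both holding all 21.

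The next question was whether levels differed among the 4 doses, which the rule treats alike. The median of the log2 ratio of treated to C2 over the 21 genes was -0.83, -0.88, -0.95 and -0.97 with rising dose, while that over all genes at 5 CPM or more was -0.12, -0.03, -0.01 and -0.06. The rule requires each library at each dose to be at or under its limit, so low medians at every dose follow from the choice of members. Only differences among the doses were tested. The same limit caps the highest treated library, so a member close to it had little room to be higher at any dose. Few calls among the members are therefore not read as a flat response to dose. A slope on log10 dose was fitted over the treated libraries with edgeR's quasi-likelihood test for 25249 genes, and 2 of the 21 members passed the adjusted threshold of 0.05, both falling; 2.04% of all genes fell and 1.02% rose.

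FOSB fell by 0.55 on the log2 scale per 10-fold dose (SE 0.12, adjusted p = 0.0399). HMGCS1 fell by 0.22 per 10-fold dose (SE 0.05, adjusted p = 0.0314). Neither passed when plain library totals replaced TMM (adjusted p = 0.0569 and 0.0806), nor without either library of the lowest dose or without replicate 2 of 0.5 μM, with slopes between -0.60 and -0.44 for FOSB and between -0.25 and -0.18 for HMGCS1. FOSB also did not pass without replicate 1 of 0.5 μM (adjusted p = 0.0908), and HMGCS1 without replicate 2 of 0.005 μM (adjusted p = 0.0583). POLA2 came next with -0.13 (SE 0.04, adjusted p = 0.1104). DESeq2, as an alternative to edgeR, called 3 members for the slope: FOSB, HMGCS1 and POLA2. Over all members 19 of 21 slopes were below 0, with a median of -0.06 beside 0.01 for all genes, of which 47.7% were below 0; with plain totals 15 of 21 were below 0.

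The order of the doses could also be read library by library. All 4 libraries of the 2 higher doses were below all 4 of the 2 lower doses in HMGCS1 and RBL1, a pattern of 6.82% of genes, and above them in SKP2, a pattern of 8.50% of genes. RBL1 had a slope of -0.09 (SE 0.04, adjusted p = 0.239) and SKP2 one of 0.04 (SE 0.04, adjusted p = 0.671). The lowest treated mean was at 0.0005 μM in 1 member, at 0.005 μM in 5, at 0.05 μM in 9 and at 0.5 μM in 6, beside 44.5%, 8.34%, 21.03% and 26.1% of all genes. The highest treated mean was at 0.05 μM in 8 members, beside 35.3% of all genes.

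The highest dose was also set against the lowest. FOSB differed between 0.5 and 0.0005 μM by -1.95 on the log2 scale (SE 0.35, adjusted p = 0.0401), the only member called, while 0.337% of genes were called lower and 0.0753% higher. The call was lost without any one of the 8 treated libraries, with adjusted p from 0.0574 to 0.507, and with plain totals (adjusted p = 0.1097), at differences from -2.22 to -1.62. HMGCS1 had a difference of -0.55 (SE 0.13, adjusted p = 0.116). In SKP2 the difference was 0.09 (SE 0.14, adjusted p = 0.824), and the other 18 members had adjusted p of at least 0.384.

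**Figure D3:**
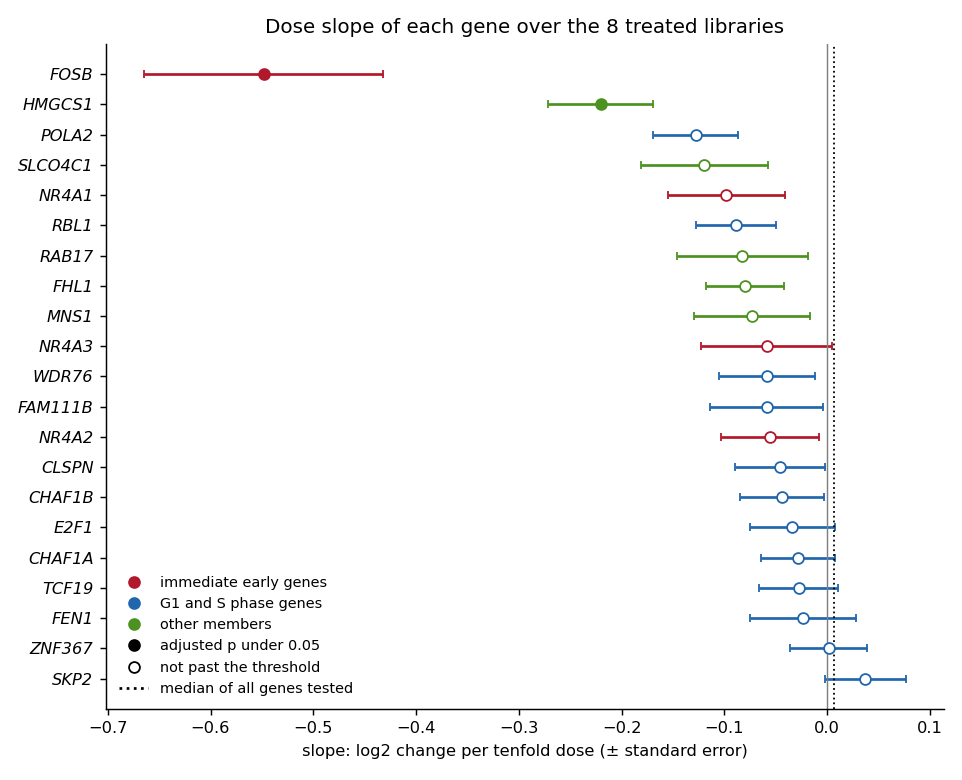
Slope of each gene over the 8 treated libraries, in log2 change per 10-fold dose (horizontal), with bars of one standard error; filled points passed the adjusted threshold of 0.05 and the dotted line is the median of all genes tested. FOSB and HMGCS1 stand apart on the left at -0.55 and -0.22, and the other members lie between -0.13 and 0.04.

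A further question was how the members stood in cultures of day 2, which took no part in the choice. Because the treated libraries and C2 did take part, low treated values and high C2 values are favoured in any comparison with C1, and the counts below are descriptions. Treated cultures also differ from C1 in day, so drug and day cannot be told apart in this comparison. Both C1 libraries were above all 8 treated libraries in 18 of the 21 members, the exceptions being FOSB, HMGCS1 and RAB17; 6.89% of all genes had this pattern. By the edgeR contrast of the mean of the 4 doses against C1, 20 of 21 members were called lower, beside 10.2% of genes lower and 10.5% higher.

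With all libraries the largest of these differences were those of NR4A1 (-2.09, SE 0.28), FOSB (-1.89, SE 0.24), NR4A3 (-1.87, SE 0.29) and NR4A2 (-1.61, SE 0.27) on the log2 scale. The G1 and S phase members lay between -1.55 in FAM111B (SE 0.11) and -1.01 in TCF19 (SE 0.13). HMGCS1 had -0.50 (SE 0.10) and SLCO4C1 -0.74 (SE 0.14). RAB17, at -0.23 (SE 0.20), was the member not called. The median member difference was -1.30 against -0.02 for all genes.

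These estimates lean on the scaling and on the C1 pair. With plain totals in place of TMM the median of all genes moved by 0.22 for treated against C1, by 0.17 for C2 against C1 and by 0.13 for 0.5 against 0.0005 μM, and called genes over the whole table changed from 2569 lower and 2645 higher to 767 lower and 3940 higher for treated against C1. For the dose slope the same change took 516 falling and 257 rising genes to 234 and 294, and for the highest against the lowest dose 85 lower and 19 higher genes to 53 and 30. The members called lower than C1 were then 19, HMGCS1 being lost (-0.28, SE 0.09). Without C1 replicate 1 they were 18, NR4A2 (-0.80, SE 0.32) and NR4A3 (-1.18, SE 0.45) being lost, and without C1 replicate 2 they were 20. The order of the members rested on C1 replicate 1. Without it NR4A1 was at -1.16 (SE 0.27) and FOSB at -1.16 (SE 0.23), while FAM111B was at -1.71 (SE 0.12) and MNS1 at -1.59 (SE 0.14). CHAF1A, E2F1 and POLA2 also moved by over 1.5 times without it, to -0.89, -0.83 and -0.76, and SLCO4C1 did so without C1 replicate 2, to -0.46.

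Between the untreated days all values of the members are a description, because the rule favours high C2 levels, and a call among them is not read as a test. In CPM the median log2 ratio of C1 to C2 was 0.29 for the 12 G1 and S phase members, -0.59 for the 4 early genes and -0.54 for the other 5, and -0.08 for all genes. Both C1 libraries were above both C2 libraries in 5 members (CLSPN, SKP2, FEN1, RBL1 and FAM111B), a pattern of 5.95% of genes, and below both in 3 (RAB17, SLCO4C1 and HMGCS1), a pattern of 24.7% of genes. RAB17, higher in C2 by 1.56 on the log2 scale (SE 0.26), was the only member called by edgeR, where 0.321% of genes were called higher and 0.00396% lower on day 4. Without C2 replicate 1 its difference was 0.99 (SE 0.20) and no member was called, and RAB17 was likewise not called without replicate 2 of 0.05 μM (1.57, SE 0.28) or replicate 1 of 0.5 μM (1.54, SE 0.27), whose spread enters the shared fit.

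FAM111B came closest among the lower ones at -0.75 (SE 0.16), and HMGCS1 was at 0.53 (SE 0.13). At an unadjusted p below 0.05 there were 7 members lower and 2 higher on day 4, beside 4.71% and 5.29% of all genes. DESeq2 called 3 lower and 2 higher, beside 0.321% and 0.753% of genes. The count and the direction depended on the C1 pair. Without C1 replicate 2 edgeR called 10 members lower and 3 higher, beside 5.01% and 2.02% of genes, with 16 members below 0 and a median of -0.51 for C2 against C1. Without C1 replicate 1 it called 2 lower and 2 higher, beside 5.69% and 4.32% of genes, with 8 members below 0, 13 above and a median of 0.08, whereas with all libraries 13 were below 0 and the median was -0.31.

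**Figure D4:**
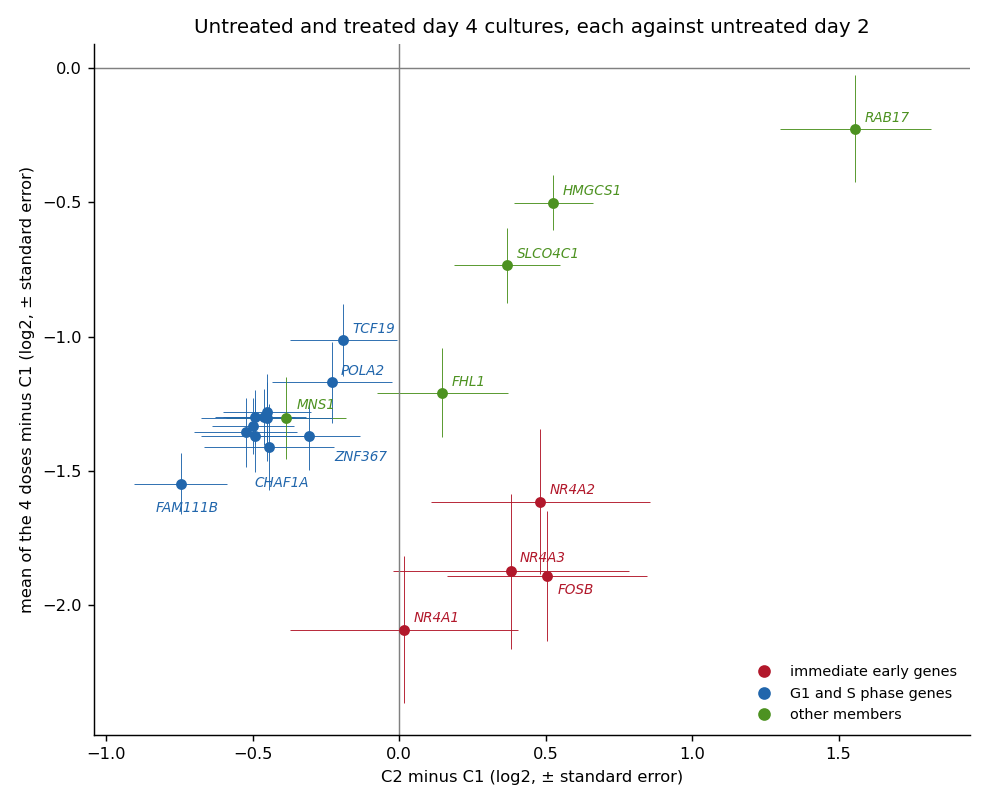
Difference of C2 from C1 (horizontal) and of the mean of the 4 doses from C1 (vertical), both in log2 with bars of one standard error, for the 21 genes coloured by group; 7 G1 and S phase genes in the dense cluster carry no name, and both axes share the C1 libraries. The G1 and S phase genes lie left of 0 and between -1.55 and -1.01, the early genes lie lowest, and RAB17 is at 1.56 and -0.23.

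Of the 21 members 10 are in a list of genes of a pathway, and the rest of each list shows how far the pathway shared the pattern. The lists were fixed with earlier results of these data known, and their levels against C2 carry no test; in 17.0% of all genes at 5 CPM or more all 8 treated libraries were below both C2 libraries, and in 8.67% above both. Members were found in 5 of 28 lists. For the calls given below, 10.2% of all 25249 genes tested were lower than C1 and 10.5% higher. With dose 2.04% fell and 1.02% rose. With plain totals 767 of the 25249 were lower than C1 and 3940 higher, and 234 fell and 294 rose with dose. Immediate early genes were mixed: of 32 genes other than AP-1 factors 9 had all treated libraries below C2 and 7 had all above. SIK1, a kinase, was at -1.31 and the factors KLF2 and KLF4 at -1.20 and -1.07 for the log2 ratio of treated to C2, but EGR1, an early zinc finger factor, was at 1.43 and the synaptic gene ARC at 2.22. NR4A1 to NR4A3, at -2.18 to -2.03, were the lowest of this list.

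AP-1 and ATF factors had 4 of 12 genes below C2 in all treated libraries, with a list median of -0.19 beside -0.05 for all genes. FOSB was at -2.20 and ATF3 at -1.09, while FOS was at -0.46, JUN at -0.08 and JUNB at 0.16. By the dose slope 3 of these 12 fell and none rose: JUND (-0.30, SE 0.04, adjusted p = 0.00185), ATF3 (-0.28, SE 0.06, adjusted p = 0.0218) and FOSB. Among the other immediate early genes 4 of 34 fell with dose and none rose, KLF2 being one of them (-0.31, SE 0.07, adjusted p = 0.0382). With plain totals 1 gene of each list fell.

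By the count of genes with all treated libraries below C2, DNA replication genes shared the direction of the S phase members most widely. By the treated mean alone 47 of 52 were lower, beside 37 of 39 recombination and Fanconi genes and 24 of 25 cholesterol synthesis genes. Of the 52 replication genes 43 had all treated libraries below C2, with a median of -0.47, though only POLA2, CLSPN and FEN1 met the rule. GINS2 was at -0.92, the helicase subunit MCM5 at -0.81 and the loading factor CDC6 at -0.73, while the clamp PCNA was at -0.53. Against C1, 47 of the 52 were called lower and none higher (42 with plain totals), among them GINS2 (-1.61, SE 0.14) and CDC6 (-1.21, SE 0.11), and none passed the dose slope in either direction (2 rose with plain totals).

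Genes of G1 and the retinoblastoma family had 11 of 27 genes below C2 in all treated libraries and a median of -0.18. E2F1 and RBL1 were members, E2F8 was at -0.80, E2F2 at -0.63 and CDK2, the kinase of S phase entry, at -0.54, but the cyclin CCND1 was at -0.39, CDKN1A, which encodes p21, at 0.07 and CDKN1B, which encodes the SKP2 target p27, at 0.28. Against C1, 17 of the 27 were called lower and 1 higher (11 and 3 with plain totals), and 2 fell with dose (1 with plain totals): CDKN1A (-0.31, SE 0.04, adjusted p = 0.00105) and CDKN1C (-0.23, SE 0.04, adjusted p = 0.0108).

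The recombination and mitosis lists held no member. Homologous recombination and Fanconi genes had 22 of 39 genes below C2 in all treated libraries with a median of -0.37, and G2 and mitosis genes 15 of 66 with a median of -0.09. Against C1, 33 of 41 recombination genes (27 with plain totals) and 56 of 66 mitosis genes (37 with plain totals) were called lower and none higher. In C2 against C1, without the drug, the median with TMM was -0.46 in DNA replication, -0.36 in recombination and -0.52 in mitosis genes. Treated against C1 it was -0.99, -0.79 and -0.65, and the median for all genes was -0.02 in both comparisons. In CPM the median log2 ratio of C1 to C2 was 0.29, 0.19 and 0.35 in these lists, beside -0.08 for all genes. None of these genes was called in C2 against C1 with all libraries, but 17 of 52, 14 of 41 and 35 of 66 were called lower without C1 replicate 1, and 25, 7 and 23 without C1 replicate 2. In mitosis genes 19 of 66 rose with dose and none fell (36 with plain totals). Cholesterol synthesis genes had 17 of 25 genes below C2 with a median of -0.46, HMGCS1 being the lowest at -0.96 and INSIG1, which holds back sterol synthesis, next at -0.76. With dose 5 of the 25 fell and none rose, HMGCS1 together with MSMO1 (-0.28, SE 0.05, adjusted p = 0.0104), MVD (-0.19, SE 0.04, adjusted p = 0.00907), SQLE (-0.17, SE 0.04, adjusted p = 0.0181) and CYP51A1 (-0.19, SE 0.05, adjusted p = 0.0370); with plain totals 2 fell.

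**Figure D5:**
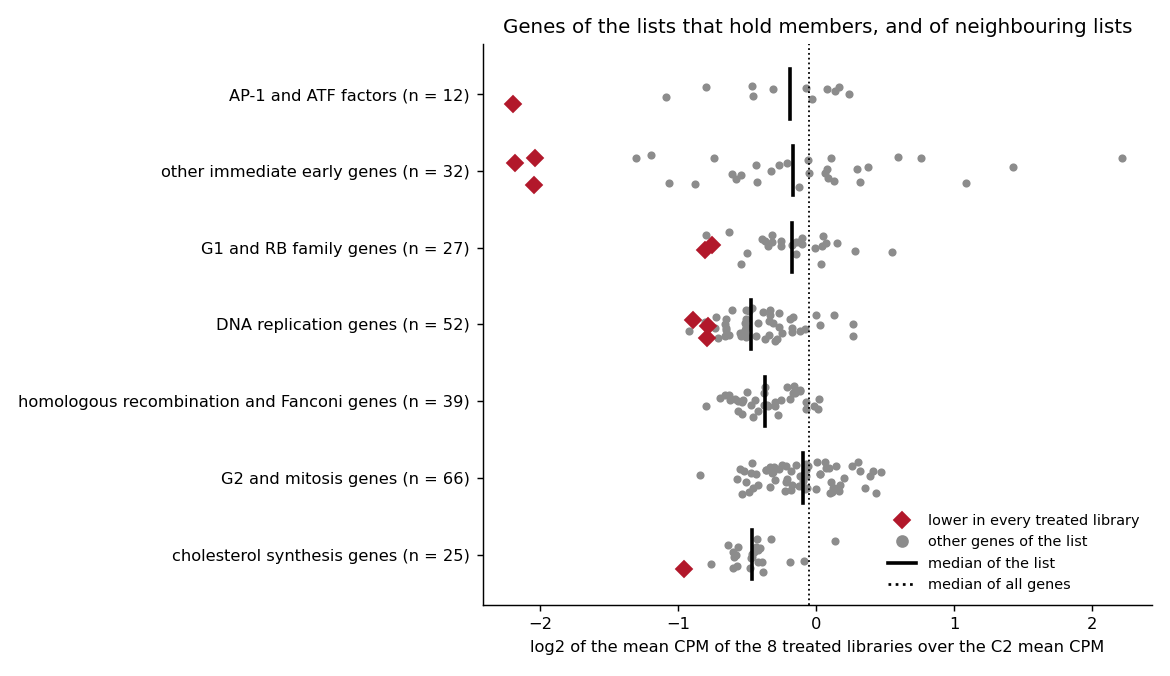
Log2 ratio of the mean CPM of the 8 treated libraries to the C2 mean (horizontal) for genes of 7 lists (rows); diamonds are the members, grey points the other genes of a list, thick lines list medians and the dotted line the median of all genes, -0.05. The early genes spread from -2.20 to 2.22, while DNA replication and cholesterol synthesis genes shift together to medians of -0.47 and -0.46.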

How the data were processed

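RNA-seq was made of 12 Matrigel cultures of the line MDA-MB-231, which the labels place in 6 conditions of 2. The authors trimmed the reads with Trimmomatic 0.39, checked them with FastQC 0.11.9, aligned them to GRCh37 with STAR 2.7.5 and counted uniquely aligned reads in exons; the deposited values are these raw counts for 63568 identifiers, and the table of the whole series was identical to the 12 single tables. CPM were computed from column totals. GENCODE on GRCh37 gave positions, exonic lengths and GC content, and RefSeq on GRCh38.p14 gave promoter windows.

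Tests were made in R 4.3.3 with edgeR 4.0.16 (filterByExpr, TMM, robust quasi-likelihood fit) and Benjamini-Hochberg adjustment over the 25249 genes kept, at a threshold of 0.05: a 6-condition model of the 12 libraries (common biological coefficient of variation 15.6%) and, over the 8 treated libraries, a slope on log10 dose (13.0%). SE is the log2 difference divided by the root of its F value. The fits were tested on simulated data. DESeq2 1.42.0, other scalings and filters, GC content and length offsets, a replicate block and leaving out each library were alternatives, plain totals being chosen after seeing the data. All 21 members are named; the members, gene lists and motifs were chosen with earlier results of these data known. With 2 libraries a condition, p-values rest on a spread shared over conditions.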

Additional observations from a re-analysis of the deposited data

How the results depend on the processing

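The count of members by the rule stayed within 1.5 times of 21 under most alternatives. It was 2 with a limit of 50.0% (NR4A1 and NR4A2), 18 after a correction for GC content and length (14 shared), and 21 to 123 when each day 4 library was left out. Replicate numbers did not pair the libraries: 8 of 15 pairs of conditions had a correlation of replicate differences over 0.1, from -0.60 to 0.70, so the fits have no block, and with the replicate block the dose slope called 0 members, FOSB and HMGCS1 not passing; the block changed no other count of members. For the dose slope, plain totals gave 0 calls and leaving out single libraries 0 to 2. For 0.5 against 0.0005 μM the count was 2 with DESeq2, with GC content and length offsets and with only the libraries of the comparison, 0 with plain totals, and 0 to 2 with single libraries left out; the cause was not tested. Treated against C1 gave 18 to 20 with single libraries left out and 20 under every alternative named beforehand that kept all libraries. For C2 against C1 the count was 5 with DESeq2, 6 with GC content and length offsets, 2 without a filter beyond 1 count, 2 with plain totals, 0 with only the 4 untreated libraries, and 0 to 13 with single libraries left out; the cause was not tested. No called single member changed sign in its 328 alternatives, and 25 of these lost the threshold. Every member had at least 306 counts in each library, and each condition had 2 libraries.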
